A study of Mus musculus with 24 samples.

Results

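The CXC chemokine ligands described here are 10 genes, Cxcl1, Cxcl2, Cxcl5, Cxcl9, Cxcl10, Cxcl12, Cxcl13, Cxcl14, Cxcl15 and Cxcl16, out of 34797 gene names on the array. They were chosen by name: every probe carrying one of these names was taken, which gave 13 probes, with 2 probes each for Cxcl9, Cxcl10 and Cxcl12. Total RNA of mammary glands of female mice was measured on 24 arrays, 3 in each of 8 groups. BALB/c mice received either a single whole-body X-ray dose of 10 cGy (low-dose ionizing radiation, LDIR) at 8 to 9 weeks of age or sham treatment, and their glands were taken 2, 4 or 8 weeks later. SPRET/EiJ mice received the same dose or sham at the same age, and their glands were taken at 4 weeks only. Both are inbred strains bought from one supplier; BALB/c carries a variant of DNA-PKcs, the kinase of end-joining repair, whereas SPRET/EiJ derives from another mouse species, Mus spretus. The array probes follow the reference mouse sequence, so a lower signal in SPRET/EiJ and a mismatch to the probe cannot be told apart here.

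Chemokines are small secreted proteins that guide the migration of leukocytes through receptors of the CXCR family. Cxcl1, Cxcl2 and Cxcl5 attract neutrophils through Cxcr2. Cxcl9 and Cxcl10 are induced by interferon and attract activated T and NK cells through Cxcr3. Cxcl12, made mainly by stromal cells, acts on Cxcr4 and holds progenitors and lymphocytes in place, while Cxcl13 attracts B cells through Cxcr5 and organizes the follicles of lymph nodes. Cxcl16 is a membrane-bound ligand of Cxcr6. Cxcl14 is made constitutively by epithelia and stroma. Cxcl15 is best known from lung epithelium.

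The probes are shown because a gene with 2 of them can be read at more than 1 place, and because these places gave different answers. The first 30 bases of each 60-base probe are given from its 5′ end in lower case, with no part set off in capitals. Coordinates of the whole probe are those of the array files (mm9). The Cxcl10 mRNA probe (chr5:92775781-92775840, minus strand) was designed on the RefSeq messenger RNA. The Cxcl10 clone probe (chr5:92776616-92776675, minus strand) was designed on a single cDNA clone of the same locus. The variant 3 probe of Cxcl12 (chr6:117131227-117131286, plus strand) and its variant 1 probe (chr6:117125026-117125085, plus strand) are annotated to different transcript variants. The downstream probe of Cxcl9 (chr5:92752191-92752250, minus strand) and its upstream probe (chr5:92752796-92752855, minus strand) belong to the same transcript. The single probes of Cxcl13 (chr5:96389861-96389920, plus strand) and Cxcl14 (chr13:56390078-56390137, minus strand) are shown for the results that turn on them.
Cxcl10 mRNA probe: gctttgcattgtatatggaagaacttgtgt
Cxcl10 clone probe: ttcctagtgtctagaagtggagcagttatt
Cxcl12 variant 3 probe: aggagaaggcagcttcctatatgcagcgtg
Cxcl12 variant 1 probe: gctgtaaacctcctaccgtatgtgggaatt
Cxcl9 downstream probe: atgggatttcattattaacttgatcccatc
Cxcl9 upstream probe: aagtcgtcgtcgttcaaggaagactacata
Cxcl13: gatttattgtcttgcattaaaaccagtaac
Cxcl14: cctcattagaggccgcactgtatggctgtg

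The remaining members had 1 probe each. That of Cxcl1 lies at chr5:91321845-91321904, plus strand, that of Cxcl2 at chr5:91334534-91334593, plus strand and that of Cxcl5 at chr5:91190490-91190549, plus strand. The probe of Cxcl15 lies at chr5:91231948-91232007, plus strand and that of Cxcl16 at chr11:70267780-70267839, minus strand. Cxcl1, Cxcl2, Cxcl5, Cxcl9, Cxcl10, Cxcl13 and Cxcl15 thus all lie on chromosome 5.

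Every level below is a log2 intensity after the array's 75th percentile was set to 0, so it orders arrays for 1 probe and does not order probes. A probe is called detected where the scanner software found it well above background. Of the 13 probes, 10 were detected on all 24 arrays, and these covered 8 genes: Cxcl1, Cxcl9, Cxcl10, Cxcl12, Cxcl13, Cxcl14, Cxcl15 and Cxcl16. The Cxcl10 clone probe was detected on 7 arrays, Cxcl2 on 6 and Cxcl5 on 1. Over all spots 58.2% were detected on the SPRET/EiJ LDIR replicate C array and 65.5% to 73.4% on the other 23. Since bulk tissue was used, fewer cells of a type and less RNA per cell cannot be told apart.

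Among all the arrays, 3 stood apart by lymphocyte genes, and leaving them out was a choice made after seeing the data. These were BALB/c 8 weeks LDIR replicate B, BALB/c 8 weeks sham replicate A and SPRET/EiJ LDIR replicate A. The mean level of 4 B cell genes (Ms4a1, Cd79a, Cd79b and Pax5) was 2.75, 2.65 and 2.98 on them, against -3.45 to -1.51 on the other 21 arrays. The mean level of 7 T cell genes, among them Cd3d and Lck, was 4.25, 3.77 and 3.72 on them, against -1.63 to -0.05. All 4 B cell genes and all 7 T cell genes lay above the other 21 arrays on each of the 3. Of 5 genes listed for lymph node stroma and vessels, 3 did so (Fcer2a, Ccl19 and Madcam1). Which cells made these transcripts is not told by the arrays, so the list is no separate measure from the B cell genes. Glycam1, a sialomucin of the same list, was at 7.51 and 7.43 on the BALB/c arrays. It was at -6.29 on the SPRET/EiJ array, against -7.94 to -1.44 elsewhere. The adipocyte list (5.12 to 5.95 against 6.39 to 7.55) and the fibroblast list (4.31 to 4.82 against 5.04 to 6.26) were lower on the 3, with 3 of 5 and 1 of 5 genes below all other arrays on each. Of all 55519 probes with a value on every array 4.24% lay below the other 21 on each of the 3 and 5.12% above. The endothelial list had a lower mean there too (1.30 to 1.48 against 1.53 to 2.00), but 0 of its 4 genes lay below on all 3, and Pecam1 lay above on the BALB/c arrays (1.09 and 1.06 against at most 0.81). The dendritic cell list was higher (-1.17 to -0.24 against -3.79 to -2.39), with 2 of 4 genes above on all 3. The neutrophil list was higher on the sham (-0.80) and SPRET/EiJ (0.20) arrays but lower on the other one (-3.48), against -3.40 to -0.92. The NK cell list was higher on the BALB/c arrays (-0.61 and -0.57 against -3.97 to -1.34) and within the range on the SPRET/EiJ array (-2.68), with 1 of 3 genes above on all 3. The macrophage (3.33 to 3.59 against 2.11 to 3.95) and epithelial lists (1.14 to 2.86 against 0.59 to 4.54) had means within the range of the others, although 1 of 6 macrophage genes, Lyz2, lay above on all 3 (4.53, 3.96 and 3.74 against at most 3.52). The 3 arrays fall in 3 different groups, 1 of them sham. The count of member calls in each comparison that holds one of them is therefore given with and without it, and the part of the lymphocyte genes in those results was not tested. Whether the tissue of these arrays included lymph node is not given in the sources used here.

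**Figure D1:**
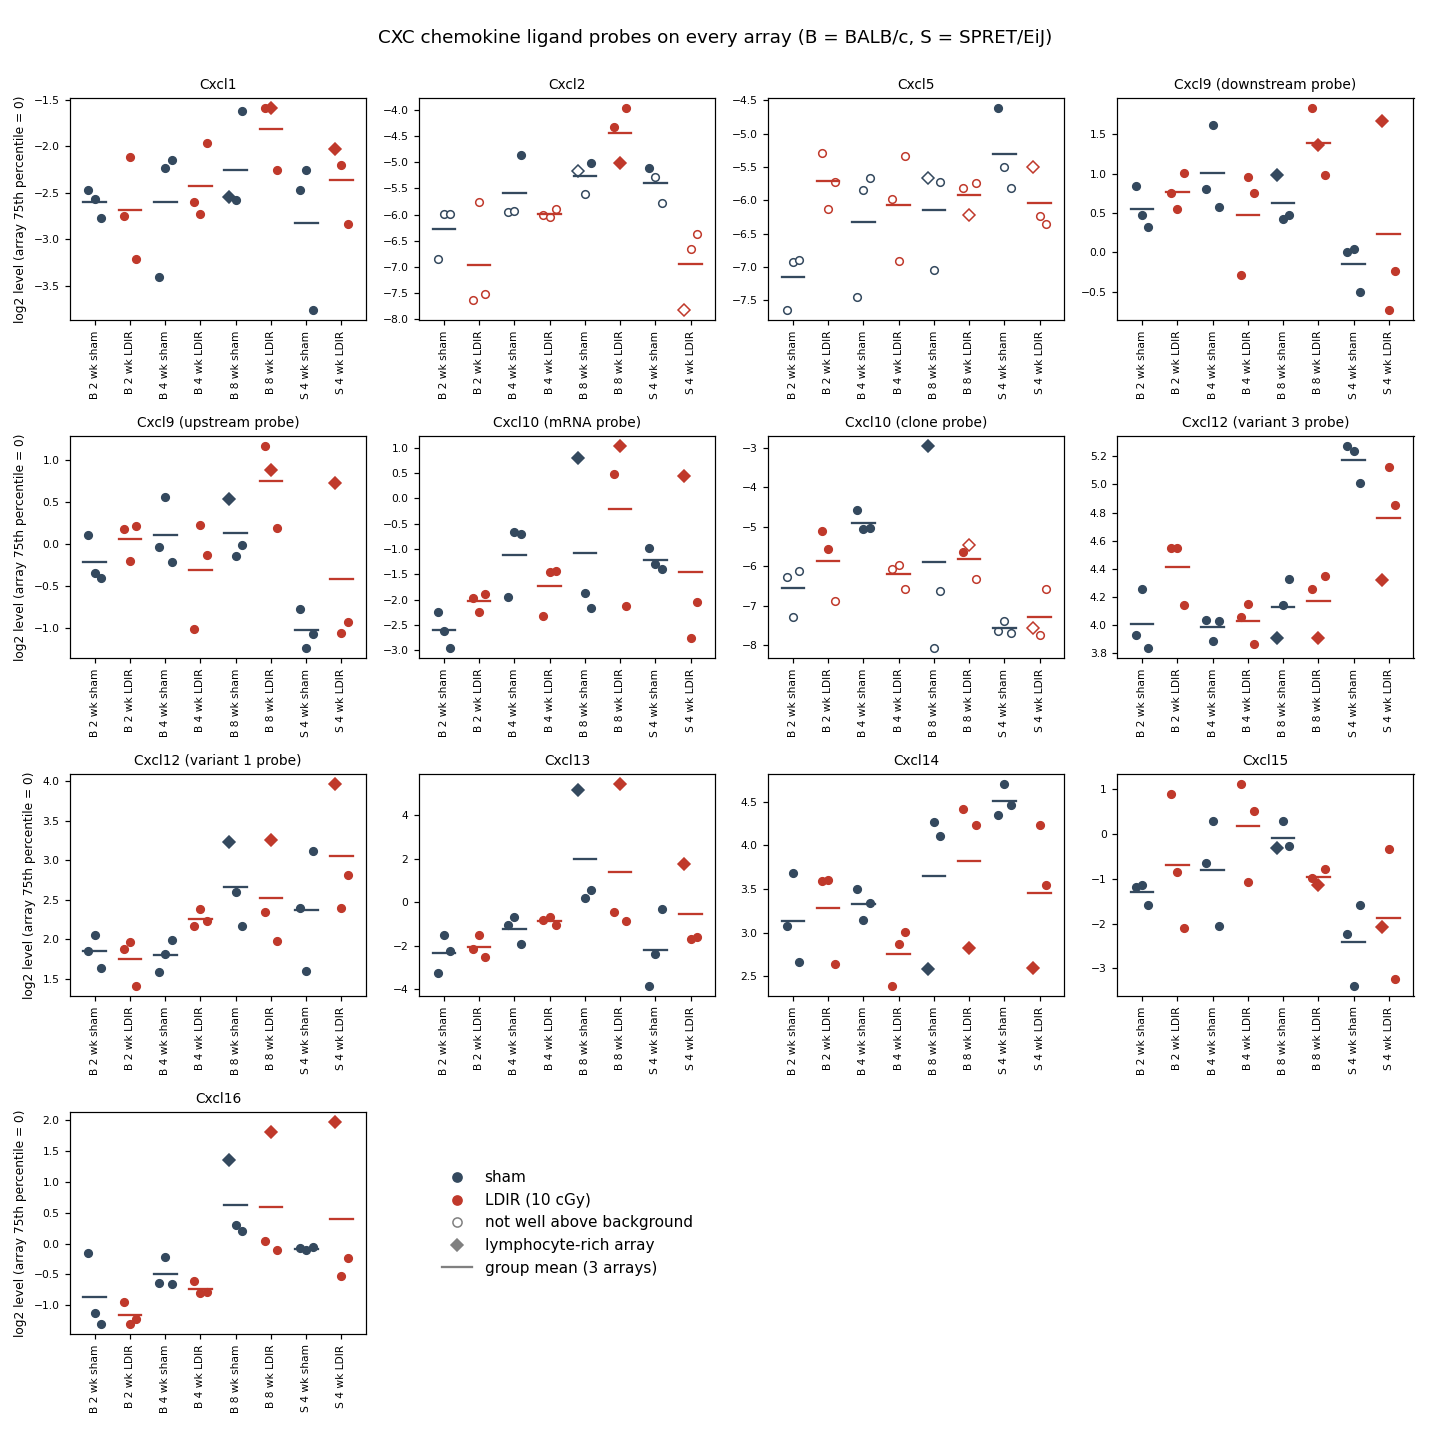
Log2 level of each of the 13 CXC ligand probes on every array, by group (B, BALB/c; S, SPRET/EiJ; weeks after exposure), with 75th percentile of the array at 0. Dark blue, sham; red, LDIR; open, not well above background; diamonds, the 3 arrays rich in lymphocyte genes; lines, means of 3 arrays. Cxcl13 spans -3.84 to 5.41, with the BALB/c diamonds on top.

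Over the 24 arrays Cxcl13 varied more than any other member. Its level ran from -3.84 to 5.41, a range of 9.25 on the log2 scale, and its SD within groups (1.88, pooled over 8 groups of 3) exceeded that of 99.8% of the 29393 probes detected on all arrays, whose median was 0.31. On the BALB/c 8 weeks LDIR replicate B array it was at 5.41, which was 66.8-fold above the mean of the other arrays of that group (-0.44 and -0.87). On the BALB/c 8 weeks sham replicate A array it was at 5.15, which was 27.2-fold above its group's other arrays (0.21 and 0.55). On the SPRET/EiJ LDIR replicate A array it was at 1.75, 10.6-fold above -1.71 and -1.61. These were the 3 lymphocyte-rich arrays, and on the other 21 the level of Cxcl13 ended at 0.55. Without them the pooled SD of Cxcl13 was 0.77 and its range 4.40, and Cxcl15 varied most (1.13 and 4.50).

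The excursion was shared by some members and not by others. Cxcl16 was at 1.82, 1.36 and 1.97 on the arrays named above, in that order, and between -1.30 and 0.30 on the other 21. The variant 1 probe of Cxcl12 was at 3.25, 3.23 and 3.96, against 1.41 to 3.11. The Cxcl10 mRNA probe was at 1.03, 0.79 and 0.44, against -2.95 to 0.48, so 2 of the 3 arrays lay above all others. The Cxcl10 clone probe was raised on 1 of them, at -2.96 on the sham array, against -8.06 to -4.58 on the other 21. The variant 3 probe of Cxcl12 did not share this: it was at 3.91, 3.91 and 4.32, inside its range of 3.84 to 5.27 elsewhere. Cxcl14 (2.82, 2.58 and 2.59) lay on each of the 3 between 1.30 and 1.60 log2 units below the mean of its group's other arrays, but within the range of the other 21 (2.39 to 4.70). Cxcl1 (-1.59, -2.55 and -2.03), Cxcl15 (-1.15, -0.31 and -2.07) and Cxcl5 (-6.22, -5.67 and -5.50) lay within the range of the other arrays. So did both probes of Cxcl9 (0.88, 0.53 and 0.72 upstream, 1.36, 0.98 and 1.67 downstream), although on the SPRET/EiJ array they stood 3.27-fold and 4.46-fold above the other arrays of its group. Cxcl2 was at -5.02, -5.16 and -7.82, and the last value, not well above background, lay below all others.

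Of 8 measured receptors, 5 lay above the other 21 arrays on all 3, beside the 5.12% of all probes. Cxcr5, the receptor of Cxcl13, was at 2.20, 2.48 and 2.31 on the 3 arrays and was detected on 1 of the other 21, where it ran from -7.90 to -2.12. Cxcr3 (1.99, 1.53 and 2.24 against -2.10 to -0.26), Cxcr4 (1.63, 1.45 and 2.57 against -2.46 to -0.52) and Cxcr6 (2.21, 2.24 and 2.21 against -2.95 to -0.68) were likewise higher on each of the 3. Cxcr2, the receptor of Cxcl1, Cxcl2 and Cxcl5, was the fifth (-0.66, -0.44 and -2.89 against -7.66 to -4.28), while Cxcr1, Cxcr7 and Darc stayed within the range of the other arrays. Of 5 CXC ligands that are no members (Cxcl3, Pf4, Ppbp, Cxcl11 and Cxcl17), 0 lay above the other 21 arrays on all 3. The mean of 12 inducers and signal genes was higher on each of the 3 (0.41, 0.09 and 0.17 against -1.43 to -0.60), with 3 of the 12 genes above on all 3 (Tnf, Il1a and Nfkb1).

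**Figure D2:**
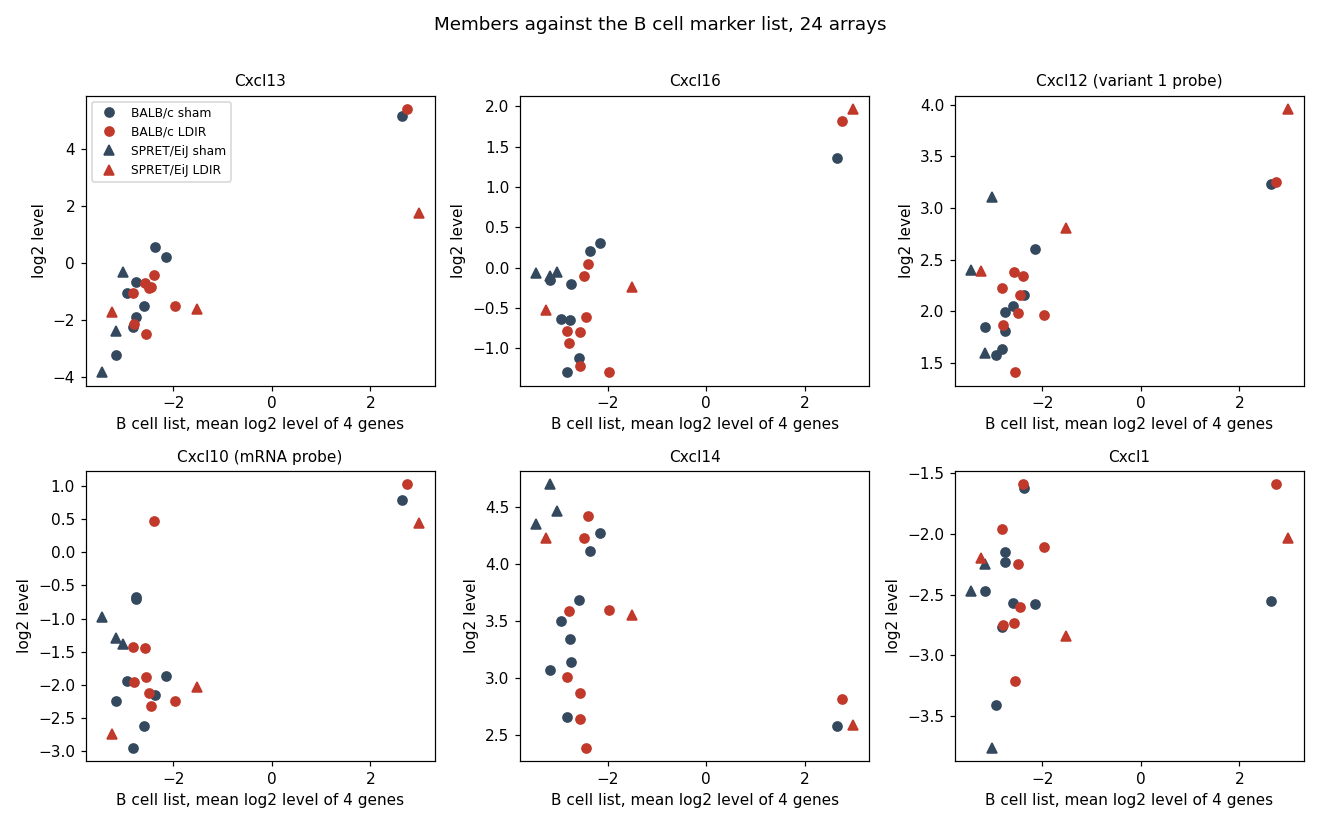
Log2 level of 6 member probes (y axes) against the mean log2 level of 4 B cell genes (x axes) on 24 arrays. Circles, BALB/c; triangles, SPRET/EiJ; dark blue, sham; red, LDIR. The 3 arrays at the right, at 2.65 to 2.98, hold the highest Cxcl13, Cxcl16 and variant 1 Cxcl12 levels, while Cxcl14 lies at 2.58 to 2.82 there and Cxcl1 lies within its usual range.

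The genes whose pattern was most like that of each detected member were sought among 31895 probes detected on all 18 BALB/c arrays, as a description of arrays that share slides, scaling and groups. For Cxcl13 they were Fermt3, Sla and Wdfy4, genes of leukocyte adhesion and signaling, each with Pearson's r = 0.98. Without the 2 lymphocyte-rich BALB/c arrays r was 0.90, 0.91 and 0.87 over 16 arrays. For Cxcl16 they were Clu, the chaperone clusterin (r = 0.98), Bcl11a, a transcription factor of lymphoid cells (0.97), and Cytip (0.97), each at 0.93 over 16 arrays. For Cxcl10 they were Orai2, Serpina3g and Wsb1, where r fell from 0.88, 0.87 and 0.87 to 0.71, 0.73 and 0.70 over 16 arrays. For Cxcl9, Cxcl12, Cxcl14, Cxcl15 and Cxcl1, r with the named genes changed little without those arrays (0.77 to 0.90 over 16). All genes named here were picked for the highest r over the 18 arrays. Since the 16 arrays are among these, the second r is no independent check. Cxcl9 followed Siah1a (0.85), Pou6f1 (0.83) and Parp10 (0.82). The variant 3 probe of Cxcl12 followed Clic4 (0.86), Arap3 (0.81) and Slc9a3r2 (0.81), and Cxcl14 followed Dync2li1 (0.91), Ankmy2 (0.90) and 1810011O10Rik (0.90). Cxcl15 followed St3gal1 (0.88), Oas2 (0.78) and Greb1 (0.78), while Cxcl1 followed Malat1, NEAT2 (another name of that lncRNA) and Gm9889, each at 0.79. After group means were subtracted, r for these genes lay between 0.69 and 0.98.

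Among the members themselves, the 2 probes of Cxcl9 gave r = 0.95 over the 18 BALB/c arrays and 0.96 over 16. The 2 probes of Cxcl12 did not vary together (r = -0.19 over 18 arrays and 0.15 over 16). Cxcl13 and the variant 1 probe of Cxcl12 gave 0.90 over 18 arrays and 0.66 over 16, and Cxcl13 and Cxcl16 gave 0.88 and 0.60. The upstream probe of Cxcl9 and the Cxcl10 mRNA probe gave 0.77 over 18 arrays and 0.72 over 16. Both genes are neighbors on chromosome 5 and are classical targets of interferon-gamma. Their promoters are printed because they varied together, beside that of Cxcl13, which varied most over the 24 arrays. The sequences are the 250 bases before the annotated start in RefSeq on GRCm38.p6, a different build from the probe coordinates, and come from the reference strain, which is neither BALB/c nor SPRET/EiJ. The table of promoters held 8 of the 10 members. Capitals mark matches, on either strand, to an interferon-response motif (GAAA, any 2 bases, GAAA) or a kappa B motif (GGGA, any 2 bases, T, any base, CC).
Cxcl10 (chr5:92348890-92349139, minus strand): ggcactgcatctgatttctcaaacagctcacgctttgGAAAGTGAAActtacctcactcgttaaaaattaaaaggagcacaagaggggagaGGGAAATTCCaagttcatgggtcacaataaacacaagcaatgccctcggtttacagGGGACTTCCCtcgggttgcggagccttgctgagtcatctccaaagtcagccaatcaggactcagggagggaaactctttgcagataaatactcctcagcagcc
Cxcl9 (chr5:92328080-92328329, minus strand): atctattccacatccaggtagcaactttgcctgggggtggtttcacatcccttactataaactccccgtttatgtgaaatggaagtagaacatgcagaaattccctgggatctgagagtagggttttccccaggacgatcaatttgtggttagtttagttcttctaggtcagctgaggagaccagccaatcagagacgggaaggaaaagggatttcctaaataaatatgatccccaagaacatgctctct
Cxcl13 (chr5:95956689-95956938, plus strand): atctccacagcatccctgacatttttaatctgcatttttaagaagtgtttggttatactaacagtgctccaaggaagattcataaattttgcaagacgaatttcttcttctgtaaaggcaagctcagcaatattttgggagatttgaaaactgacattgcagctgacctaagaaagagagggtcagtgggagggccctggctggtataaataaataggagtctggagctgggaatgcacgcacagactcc

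The Cxcl10 window held 1 match to the interferon-response motif, 213 to 204 bases before the start, and 2 to the kappa B motif, at 159 to 150 and 103 to 94 bases. The windows of Cxcl9 and Cxcl13 held neither. Of 32851 promoters of the same length, 2.98% held the interferon-response motif and 3.33% the kappa B motif. Cxcl1 and Cxcl2 each held overlapping kappa B matches, and Cxcl14 held 1 match to the interferon-response motif. These are matches of letters and were not tested against the array values.

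The first comparison asked which members differed between the strains without irradiation, at 4 weeks. By the thresholds of the study's methods (unadjusted p under 0.001 and more than 1.5-fold) 3 of 13 member probes passed in limma, beside 8.89% of all 55681 probes. Cxcl14 and the variant 3 probe of Cxcl12 were lower in BALB/c than in SPRET/EiJ, and the Cxcl10 clone probe was higher. At an adjusted p under 0.05 (Benjamini-Hochberg over all probes) 4 member probes passed, beside 18.8% of all probes, the upstream probe of Cxcl9 being the fourth. The median difference of the member probes was 0.11 and that of all probes -0.08. The arrays of a group are biological replicates by the study's methods.

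The variant 3 probe of Cxcl12 was at 4.04, 3.89 and 4.03 in sham BALB/c at 4 weeks and at 5.27, 5.24 and 5.01 in sham SPRET/EiJ. The groups did not overlap, and BALB/c was lower by 2.28-fold (log2 difference -1.19 ± 0.16 SE, adjusted p = 0.00465). This was the member with the smallest spread within groups (0.23), and it stayed at 3.84 to 4.55 on all 18 BALB/c arrays. The variant 1 probe pointed the same way without passing (-0.58 ± 0.39, adjusted p = 0.367).

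Cxcl14 was at 3.50, 3.14 and 3.34 in sham BALB/c and at 4.35, 4.70 and 4.46 in sham SPRET/EiJ. It was 2.26-fold lower in BALB/c (-1.18 ± 0.19, adjusted p = 0.00776), with no overlap. With any 1 of the 6 arrays left out Cxcl14 no longer passed the thresholds (difference -1.26 to -1.08, adjusted p 0.0204 to 0.0273). Cxcl12 variant 3 passed in 1 of these 6 fits, the one without SPRET/EiJ replicate C, and lost the call in the others (-1.27 to -1.14, adjusted p 0.0134 to 0.0242). All 6 SPRET/EiJ arrays lie on the same slide, which holds no 4-week BALB/c array, so slide and strain cannot be told apart here. With all 24 arrays in 1 fit Cxcl12 variant 3 kept its call (adjusted p = 0.000304), while Cxcl14 (adjusted p = 0.0969) and the Cxcl10 clone probe (adjusted p = 0.0235) lost theirs. With slide added to that fit all 3 lost it (adjusted p = 0.161, 0.361 and 0.639), although the differences were -1.28, -2.06 and 2.26. The call of Cxcl14 also ended with quantile normalization (-0.95) and with the methods' t-test.

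Both probes of Cxcl9 were higher in sham BALB/c. The upstream probe was at -0.04, 0.56 and -0.21 in BALB/c and at -0.77, -1.23 and -1.07 in SPRET/EiJ, a difference of 1.12 ± 0.26 (adjusted p = 0.0292). The downstream probe was at 0.81, 1.62 and 0.58 in BALB/c and at 0.01, 0.04 and -0.51 in SPRET/EiJ (1.16 ± 0.32, adjusted p = 0.0535). Neither overlapped between strains, and neither reached an unadjusted p of 0.001.

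The 2 probes of Cxcl10 disagreed. The mRNA probe was at -1.95, -0.67 and -0.71 in sham BALB/c and at -0.98, -1.29 and -1.39 in sham SPRET/EiJ, a difference of 0.11 (95% interval -0.80 to 1.02, adjusted p = 0.864), and the groups overlapped. The clone probe was at -4.58, -5.05 and -5.04 in BALB/c, where it was detected on all 3 arrays, and at -7.63, -7.37 and -7.68 in SPRET/EiJ, where it was detected on none. The fit gave 2.67 ± 0.20 (adjusted p = 0.000571), but with no detected value in SPRET/EiJ the difference has only a lower bound, at least 1.40-fold. This bound is that of the background-subtracted signal, and with normexp background correction the log2 difference was 0.27, which lies below it and did not pass. The strain call for Cxcl10 in this fit thus rested on the clone probe.

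The remaining members did not pass between sham strains. Cxcl15 was at -0.64, 0.29 and -2.06 in BALB/c and at -2.24, -3.39 and -1.59 in SPRET/EiJ (1.60 ± 0.70, adjusted p = 0.177). Cxcl13 (0.96 ± 0.88), Cxcl1 (0.23 ± 0.52), Cxcl2 (-0.19 ± 0.36) and Cxcl5 (-1.02 ± 0.55) had overlapping groups, the last 2 with at most 1 detected array in each. Cxcl16 was at -0.64, -0.21 and -0.65 in BALB/c and at -0.07, -0.11 and -0.06 in SPRET/EiJ, without overlap and without passing (-0.42 ± 0.19, adjusted p = 0.178). Cell type lists also differed between these sham groups. The macrophage list was at 2.11 to 2.98 in BALB/c and at 3.45 to 3.75 in SPRET/EiJ, and the neutrophil (-3.04 to -2.80 and -1.22 to -1.06) and lymph node lists (-3.37 to -2.83 and -1.28 to -0.37) were lower in BALB/c too. In the last 2 lists single genes differed most, Mpo by -6.83 and Cr2 by -5.63. The mean levels of the lists of epithelium (2.78 to 3.69 and 0.59 to 2.74), T cells (-1.12 to -0.05 and -1.59 to -1.21), NK cells (-2.48 to -1.34 and -3.97 to -2.62), B cells (-2.94 to -2.75 and -3.45 to -3.02) and dendritic cells (-3.41 to -2.50 and -3.73 to -3.63) lay higher in BALB/c without overlap. Few genes of these lists passed the strain thresholds. In the epithelial, T cell, NK cell and macrophage lists 0 genes did. Of 4 B cell genes 2 passed in opposite directions (Cd79a -1.31 and Cd79b 1.49), and of 4 dendritic genes 1 did (Itgax 2.62, list median 0.23). In the lymph node list 2 of 5 passed and in the neutrophil list 1 of 6, beside the 8.89% of all probes. The skeletal muscle list was at -2.45 to 2.06 and -3.45 to -2.61 without overlap (list median 2.89), and 0 of its 3 genes passed. The fibroblast list overlapped (5.04 to 5.78 and 5.68 to 6.26). The part of these cells in the member differences was not tested.

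**Figure D3:**
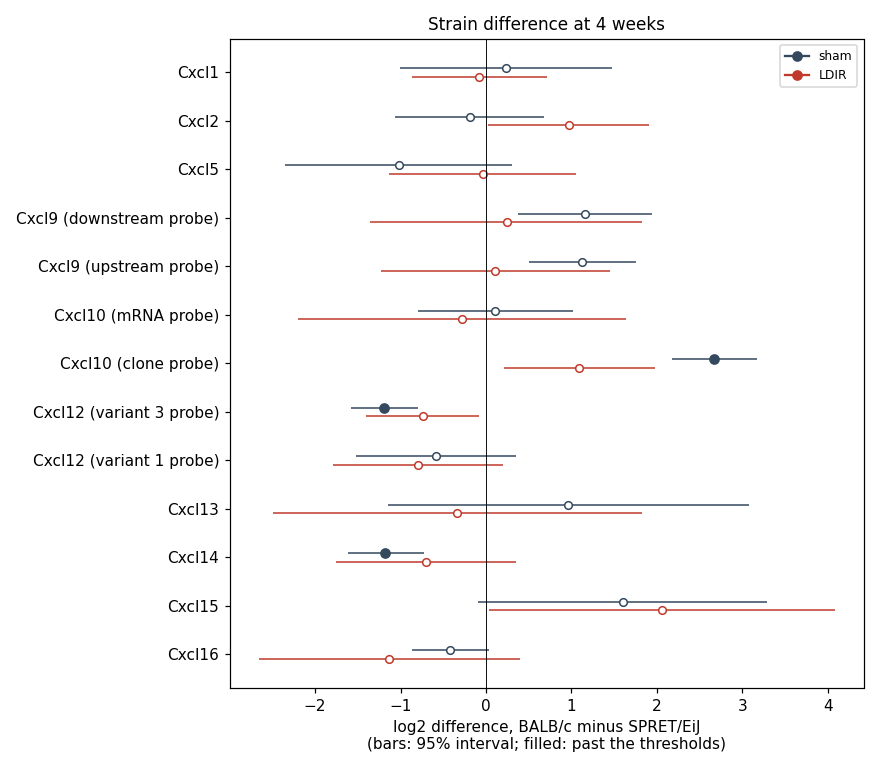
Log2 difference, BALB/c minus SPRET/EiJ, of each member probe at 4 weeks with its 95% interval, for sham (dark blue) and LDIR (red) glands, 3 arrays a group. Filled points passed the strain thresholds. The 3 filled points are all sham, at 2.67, -1.19 and -1.18.

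After LDIR the same strain comparison at 4 weeks gave 0 of 13 member probes by limma at the strain thresholds, beside 5.67% of all probes, and 0 at an adjusted p under 0.05, beside 11.1%. At an unadjusted p under 0.05 there were 4, beside 25.1% of all probes, and at the strain thresholds the methods' t-test gave 0. The variant 3 probe of Cxcl12 was at 4.06, 4.15 and 3.87 in BALB/c and at 4.32, 5.12 and 4.85 in SPRET/EiJ (-0.74 ± 0.28, adjusted p = 0.153). Its lowest SPRET/EiJ value was that of the lymphocyte-rich array. Without that array 0 probes passed the thresholds, beside 7.9% of all probes, while 2 passed the adjusted p, beside 19.9%. These were Cxcl12 variant 3 (-0.96 ± 0.19, adjusted p = 0.0267) and Cxcl13, higher in BALB/c (0.80 ± 0.19, adjusted p = 0.0414), whose difference had the other sign with the array (-0.34 ± 0.90). The differences of Cxcl9 were 0.24 and 0.11 with the array and 0.96 and 0.68 without it (downstream and upstream probe), and did not pass. Cxcl16 was at -0.61, -0.80 and -0.79 in BALB/c and at 1.97, -0.53 and -0.24 in SPRET/EiJ, with no overlap but no call (-1.13 ± 0.64, adjusted p = 0.333). Without the lymphocyte-rich array, which held the 1.97, the difference was -0.35 ± 0.19 (adjusted p = 0.25). The neutrophil list was lower in BALB/c (-3.22 to -2.71 against -1.55 to 0.20). So was the lymph node list (-3.00 to -2.24 against -1.55 to 0.61). The epithelial (2.46 to 3.42 against 1.14 to 2.25) and NK cell lists (-2.62 to -1.78 against -3.26 to -2.68) were higher. The endothelial list was higher too (1.71 to 1.91 against 1.30 to 1.62). At most 1 gene of each list passed. The part of these cells in the member differences was not tested.

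With the 12 arrays of both treatments in 1 fit, a choice made after seeing the data, 2 member probes passed the strain thresholds, beside 16.6% of all probes, and 4 the adjusted p, beside 29.2%. Cxcl12 variant 3 was at -0.96 ± 0.17 (adjusted p = 0.000806) and the Cxcl10 clone probe at 1.88 ± 0.31. Since the clone probe was detected in sham BALB/c only, its fitted value is no measured difference. Cxcl14 (-0.94 ± 0.25, adjusted p = 0.0136) and Cxcl15, higher in BALB/c (1.83 ± 0.57, adjusted p = 0.0301), passed the adjusted p only. The difference of Cxcl9 was then 0.62 to 0.70 and did not pass (adjusted p = 0.221 and 0.234). In the 11 arrays other than the lymphocyte-rich one 3 member probes passed the thresholds, beside 20.2% of all probes, and 6 the adjusted p, beside 35.4%. Cxcl14 (-1.16 ± 0.17) joined the first count. Both Cxcl9 probes (0.93 ± 0.24 and 1.07 ± 0.27) and Cxcl16 (-0.39 ± 0.13) joined the second, and Cxcl15 left it (1.76 ± 0.63, adjusted p = 0.0506). In the 12-array fit 3 of 6 epithelial genes passed higher in BALB/c (list median 1.61), and 3 of 6 neutrophil genes and 2 of 5 lymph node genes passed lower, beside the 16.6% of all probes. The part of these cells in the member differences was not tested.

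The next comparisons asked what 10 cGy did to the members at each time. By limma 0 probes of the whole array had an adjusted p under 0.05 in any of the 4 LDIR comparisons, that is 0% of all probes, and the methods' t-test with the same adjustment also gave 0. At an unadjusted p under 0.05 the comparisons held 2, 3, 1 and 2 member probes (BALB/c at 2, 4 and 8 weeks and SPRET/EiJ at 4 weeks), beside 5.03%, 6.18%, 1.97% and 2.22% of all probes. By the methods' thresholds (unadjusted p under 0.05 and more than 1.5-fold) 1 of 13 member probes passed at 2 weeks, beside 3.05% of all probes. The count was 1 at 4 weeks, beside 4.83%, and 1 at 8 weeks, beside 1.92%. In SPRET/EiJ it was 2, beside 2.21%. No member passed in more than 1 of these comparisons. Since the share of all probes that passed in more than 1 is not given here, this is no result about the members. With 3 against 3 arrays an exact permutation test cannot go below p = 0.1.

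At 2 weeks the probe that passed was Cxcl5, at -5.29, -6.13 and -5.73 after LDIR and at -7.64, -6.92 and -6.90 in sham (1.44 ± 0.30, adjusted p = 0.826). It was detected on none of these 6 arrays, so no fold is given, and with normexp the difference was 0.08 and did not pass. The Cxcl10 mRNA probe, detected on all 6, was at -1.96, -2.24 and -1.88 after LDIR and at -2.25, -2.62 and -2.95 in sham. These groups did not overlap, and the difference of 0.58 ± 0.22 (95% interval 0.04 to 1.11, adjusted p = 0.869) ended just under 1.5-fold. Both probes of Cxcl9 had overlapping groups, and their differences did not pass (downstream probe 0.22 ± 0.21, upstream probe 0.27 ± 0.21). In the same comparison the endothelial list was at 1.80 to 2.00 after LDIR and at 1.60 to 1.78 in sham. The list of inducers and signal genes was lower after LDIR (-1.43 to -1.29 against -1.16 to -1.01). In both lists 0 genes passed, while 1 of 4 B cell genes did, beside 3.05% of all probes. The part of these genes in the member values was not tested.

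At 4 weeks in BALB/c the Cxcl10 clone probe passed. It was at -6.07, -5.96 and -6.57 after LDIR, where it was detected on no array, and at -4.58, -5.05 and -5.04 in sham, which bounds the fall at a factor of at least 1.58-fold (fitted difference -1.31 ± 0.24, adjusted p = 0.640). With normexp background correction the difference was -0.26, smaller than this bound, and did not pass. The mRNA probe of the gene moved from -1.95, -0.67 and -0.71 in sham to -2.32, -1.45 and -1.43 after LDIR, with overlap (-0.62 ± 0.43, 95% interval -1.65 to 0.40). Cxcl14 was at 2.39, 2.87 and 3.01 after LDIR and at 3.50, 3.14 and 3.34 in sham, without overlap (-0.57 ± 0.22, adjusted p = 0.775). The variant 1 probe of Cxcl12 was at 2.16, 2.38 and 2.23 after LDIR and at 1.58, 1.81 and 1.99 in sham, also without overlap (0.46 ± 0.18, adjusted p = 0.775). Neither of these reached 1.5-fold. In the same comparison the macrophage list was at 3.09 to 3.58 after LDIR and at 2.11 to 2.98 in sham, and 3 of its 6 genes passed (Emr1 0.72, Cd68 0.81 and Mrc1 0.77), beside 4.83% of all probes. The epithelial list overlapped (2.46 to 3.42 and 2.78 to 3.69), and 2 of its 6 genes passed, the basal keratins Krt5 (-0.73) and Krt14 (-0.93). The milk protein list was at -3.00 to -0.06 and -3.48 to -3.04 without overlap, and 1 of its 3 genes passed (Csn2 2.81). In the neutrophil list 1 of 6 passed (Ly6g 1.07). Each of these 7 genes had an adjusted p of 0.66 or more. The part of these cells in the member values was not tested. Within slide 2, which held the 3 LDIR arrays and 1 sham array, the differences were -1.16 for the Cxcl10 clone probe, -0.59 for Cxcl14 and 0.27 for Cxcl12 variant 1. Slide 1 held no LDIR array of this comparison. A slide block therefore sets each difference by the 1 sham array on slide 2, and the other sham arrays give spread only. With slide as a block 4 member probes passed, beside 2540 of all probes: the Cxcl10 clone probe, Cxcl2 (-1.12, adjusted p = 0.367), Cxcl13 (1.05, adjusted p = 0.634) and Cxcl15 (2.25, adjusted p = 1).

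At 8 weeks Cxcl15 passed. It was at -0.98, -1.15 and -0.78 after LDIR and at -0.31, 0.28 and -0.27 in sham, 1.83-fold lower after LDIR with no overlap (-0.87 ± 0.27, adjusted p = 1). Over all probes the median difference here was -0.14. Within slide 2 (1 LDIR and 3 sham arrays) the difference was -0.88, and leaving out 8 weeks sham replicate B (-0.68) or LDIR replicate B (-0.78) ended the call. At 2 and 4 weeks the difference of Cxcl15 had the other sign (0.62 ± 0.71 and 0.99 ± 0.76) without passing. Cxcl13, with 1 lymphocyte-rich array in each group, was at -0.44, 5.41 and -0.87 after LDIR and at 5.15, 0.21 and 0.55 in sham, so its interval ran from -5.79 to 4.58. Without those arrays 4 member probes passed, beside 4.35% of all probes, from 2 arrays against 2. They were Cxcl13 (-1.03 ± 0.26), Cxcl15 (-0.89 ± 0.26), Cxcl2 (1.16 ± 0.29) and the downstream probe of Cxcl9 (0.95 ± 0.34), each with an adjusted p of 0.968 in limma. In the fit of all arrays at 8 weeks 1 of 6 neutrophil genes passed lower, beside 1.92% of all probes. The part of these cells in the member values was not tested.

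In SPRET/EiJ at 4 weeks Cxcl14 and Cxcl2 passed. Cxcl14 was at 2.59, 4.23 and 3.55 after LDIR and at 4.35, 4.70 and 4.46 in sham, 2.07-fold lower after LDIR without overlap (-1.05 ± 0.43, adjusted p = 0.972). Its lowest value was that of the lymphocyte-rich array, and without it the difference was -0.61 ± 0.28 (adjusted p = 1) and did not pass. Leaving out any other array but LDIR replicate B ended the call too (-1.12 to -0.95). Cxcl2 was detected on 1 sham array and on no LDIR array (-7.82, -6.66 and -6.37 against -5.11, -5.29 and -5.78), so no fold is given (-1.55 ± 0.43, adjusted p = 0.972; with normexp -0.12, which did not pass). Without the lymphocyte-rich array 3 probes passed, beside 3.77% of all probes, which were Cxcl2, Cxcl5 (-0.99) and the Cxcl10 mRNA probe. The last was at 0.44, -2.75 and -2.04 after LDIR and at -0.98, -1.29 and -1.39 in sham. Its difference was -0.23 with the array and -1.18 without it (adjusted p = 0.671). In the fit of all arrays 1 of 4 B cell genes passed higher, beside 2.21% of all probes. The B cell list was at -3.25 to 2.98 after LDIR and at -3.45 to -3.02 in sham, with overlap (list median 2.90). The T cell list overlapped too (-1.63 to 3.72 and -1.59 to -1.21, list median 2.08). What these cells add to the member values was not tested.

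Cxcl1, Cxcl16 and the variant 3 probe of Cxcl12 did not pass in any of these 4 comparisons. The differences of Cxcl1 were -0.08 ± 0.29, 0.16 ± 0.40 and 0.44 ± 0.37 at 2, 4 and 8 weeks in BALB/c and 0.47 ± 0.46 in SPRET/EiJ. Those of Cxcl16 were -0.29 ± 0.32, -0.23 ± 0.19, -0.04 ± 0.62 and 0.48 ± 0.63 in the same order, and the last 2 were -0.28 ± 0.18 and -0.30 ± 0.20 without the lymphocyte-rich arrays. Those of Cxcl12 variant 3 were 0.40 ± 0.19, 0.04 ± 0.16, 0.05 ± 0.25 and -0.41 ± 0.29.

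**Figure D4:**
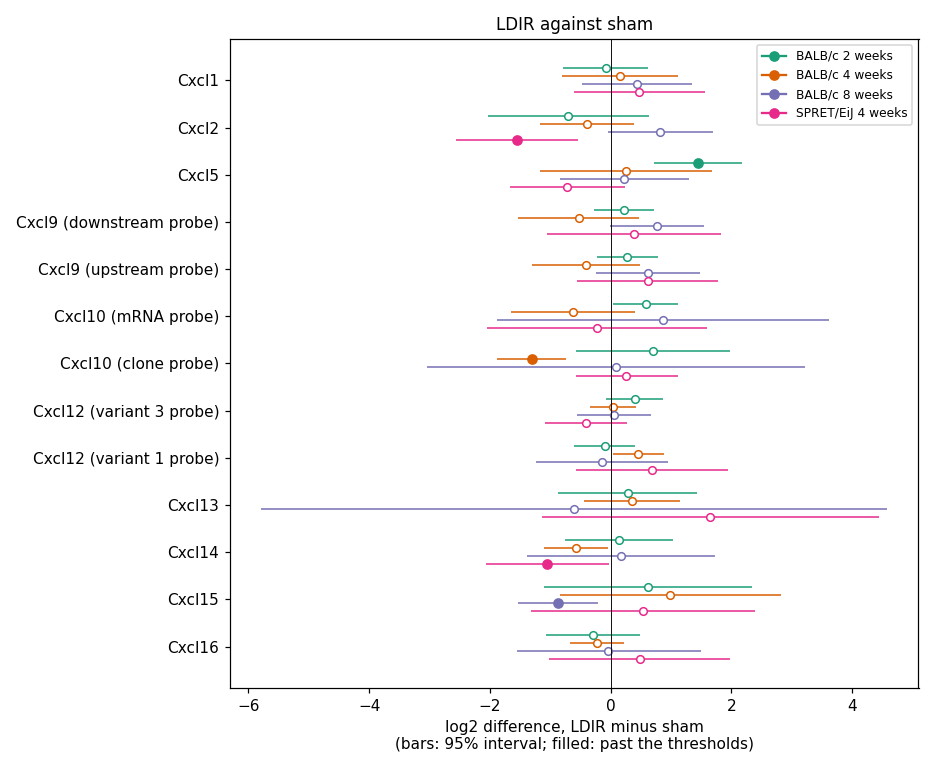
Log2 difference, LDIR minus sham, of each member probe with its 95% interval in BALB/c at 2 (green), 4 (orange) and 8 weeks (purple) and in SPRET/EiJ at 4 weeks (pink), 3 arrays a group. Filled points passed the LDIR thresholds. Cxcl13 at 8 weeks has the widest interval, -5.79 to 4.58.

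Over the 3 times together, 18 BALB/c arrays with time as a factor, 0 member probes passed in limma, beside 1.16% of all probes at the thresholds and 0% by adjusted p, and 0 had an unadjusted p under 0.05, beside 3.34%. Cxcl5 came nearest (0.64 ± 0.31, adjusted p = 0.985), on a probe detected on no BALB/c array. Without the lymphocyte-rich arrays it passed (0.79 ± 0.32, adjusted p = 0.612), beside 1.74% of all probes. For the detected members the intervals bound the pooled effect. That of Cxcl10 (mRNA probe) ran from -0.68 to 1.23 and that of Cxcl13 from -1.63 to 1.65. The difference of Cxcl13 was 0.01 ± 0.77 over the 18 arrays and -0.02 ± 0.28 without the lymphocyte-rich ones.

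Whether the LDIR effect differed between strains at 4 weeks was tested as an interaction. Of the members, 1 probe passed, the Cxcl10 clone probe, beside 3.59% of all probes at the thresholds and 0% by adjusted p (-1.58 ± 0.44, adjusted p = 0.955). It was detected in 1 of the 4 groups, sham BALB/c, and with normexp background correction the interaction was -0.20 and did not pass. The mRNA probe gave -0.39 ± 0.96 (adjusted p = 0.958) and Cxcl14 0.48 ± 0.51. Without the lymphocyte-rich array the clone probe was again the probe that passed, beside 4.56% of all probes. Whether the effect differed between 2, 4 and 8 weeks was tested with an F test in BALB/c. There 0 member probes passed in limma, beside 3.74% of all probes and 0% by adjusted p. At an unadjusted p under 0.05 there were also 0, and the largest F was that of the downstream probe of Cxcl9 (F = 3.52, adjusted p = 1). Without the lymphocyte-rich arrays the Cxcl10 clone probe passed (adjusted p = 0.974), beside 4.72%.

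The last comparison asked how the members changed with time in sham BALB/c, whose ages rise with the weeks. At an unadjusted p under 0.05, 3 member probes passed the F test, beside 16.5% of all probes, and by adjusted p 0 did, beside 1.59%. They were Cxcl16, Cxcl13 and the variant 1 probe of Cxcl12. Cxcl16 was at -0.16, -1.12 and -1.30 at 2 weeks, at -0.64, -0.21 and -0.65 at 4 weeks and at 1.36, 0.30 and 0.21 at 8 weeks (F = 7.30, adjusted p = 0.175). Each array at 8 weeks lay above every array at 2 and 4 weeks, by 1.48 ± 0.40 from 2 to 8 weeks. Cxcl13 was at -3.24, -1.52 and -2.25 at 2 weeks, at -1.06, -0.67 and -1.91 at 4 weeks and at 5.15, 0.21 and 0.55 at 8 weeks (F = 6.82, adjusted p = 0.189). Here too each 8-week array lay above the earlier ones. Cell type lists moved with time in these arrays as well. The adipocyte list was at 5.95 to 6.83 at 8 weeks, against 7.27 to 7.54 at 2 weeks and 7.07 to 7.36 at 4 weeks, and 4 of its 5 genes passed. The macrophage list was at 3.16 to 3.33 at 8 weeks, against 2.25 to 3.15 and 2.11 to 2.98, and 2 of its 6 genes passed. The B cell list was at -2.36 to 2.65, against -3.16 to -2.59 and -2.94 to -2.75, with 0 of 4 genes passing, and 2 of 4 endothelial genes and 1 of 4 dendritic genes passed. The part of these cells in the member values was not tested. The variant 1 probe of Cxcl12 was at 1.85, 2.05 and 1.64, then 1.58, 1.81 and 1.99, then 3.23, 2.60 and 2.16 (F = 5.61, adjusted p = 0.234).

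The highest 8-week value of each of these 3 genes came from the lymphocyte-rich array. Without it Cxcl13 (adjusted p = 0.0678) and Cxcl16 (adjusted p = 0.21) passed again, and the variant 1 probe of Cxcl12 did not (adjusted p = 0.268). In all 5 member probes then passed, beside 21.3% of all probes; the others were Cxcl14 (adjusted p = 0.159), the Cxcl10 mRNA probe (adjusted p = 0.123) and the Cxcl10 clone probe (adjusted p = 0.0616). The 2-week arrays lay on slide 1 and the 8-week sham arrays on slide 2, with the 4-week sham group on both. With slide as a block Cxcl13 (adjusted p = 0.903) and Cxcl16 (adjusted p = 0.922) did not pass, and the only 4-week sham array on slide 2 was at -1.91 for Cxcl13 and -0.65 for Cxcl16, within the sham values of slide 1. The 8-week sham arrays, on the same slide as this array, all lay above it for both genes. With only this array to compare on slide 2, the part of slide in the rise with time was not tested.

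The wider pathway was read on 31 measured genes: 8 CXC receptors, 5 other CXC ligands, 12 inducers and signal genes and 6 proteases and binders. Between sham strains 3 passed, beside 8.89% of all probes, and 8 did by adjusted p, beside 18.8%. Pf4, a platelet chemokine, was lower in BALB/c (-2.24 ± 0.30) and Cxcl17, a mucosal chemokine, was higher (3.81 ± 0.62). The gelatinase Mmp9 passed too, at -2.70, -3.76 and -3.01 in BALB/c, but it was detected on no sham SPRET/EiJ array. After LDIR 2 passed between strains, beside 5.67%, and 7 did by adjusted p, beside 11.1%: Ppbp, another platelet chemokine, was lower in BALB/c (-3.19 ± 0.47) and Mmp9 passed as higher, at -2.67, -2.58 and -3.18 in BALB/c and detected on 1 of 3 SPRET/EiJ arrays, the lymphocyte-rich one (-4.50). These 5 calls had adjusted p of 0.016 or less. Without the lymphocyte-rich array 2 passed, beside 7.9% (Pf4 and Mmp9, the last with no detected SPRET/EiJ array), and Ppbp did not (-3.39 ± 0.53, adjusted p = 0.014). By adjusted p 12 then passed, beside 19.9%.

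The pathway calls for LDIR each had an adjusted p of 0.68 or more, several of them on undetected probes. At 2 weeks 2 of 31 passed, beside 3.05% of all probes, Cxcl17 lower (-1.16 ± 0.43) and Cxcr5 higher (1.00 ± 0.25), the last on 6 arrays of which 0 detected it. At 4 weeks 4 passed, beside 4.83%. Pf4 was higher (0.94 ± 0.25), and Ifng, the interferon that induces Cxcl9 and Cxcl10, was lower, at -5.35, -4.13 and -4.71 after LDIR and at -4.22, -3.07 and -3.45 in sham, with overlap (-1.15 ± 0.41). Cxcr1 (0.78 ± 0.18) was detected on 2 LDIR arrays and 0 sham arrays, and Cxcr2 (-1.03 ± 0.42) on 1 sham array and 0 LDIR arrays. At 8 weeks 1 passed, beside 1.92%, the neutrophil collagenase Mmp8 (-2.38 ± 0.83), which 2 sham arrays and 0 LDIR arrays detected and which was highest on the lymphocyte-rich sham array. Without the lymphocyte-rich arrays it did not pass (-1.39 ± 0.67). In SPRET/EiJ and in pooled BALB/c 0 of 31 passed, beside 2.21% and 1.16% of all probes. Without the lymphocyte-rich array 1 gene, Il1b, passed in SPRET/EiJ (-0.59 ± 0.23, adjusted p = 1), beside 3.77%. The strain interaction passed for 3 genes, beside 3.59%: Pf4 (1.35 ± 0.57), Il1a (-1.23 ± 0.54) and Nfkbia (-1.06 ± 0.47), each with an adjusted p of 0.955. Il1a was detected on 0 of these 12 arrays. Without the lymphocyte-rich SPRET/EiJ array 0 of 31 passed, with Pf4 at 0.84 ± 0.38, Il1a at -0.88 ± 0.48 and Nfkbia at -0.70 ± 0.37. The time interaction passed for 1 gene, Mmp8, beside 3.74%, and without the lymphocyte-rich arrays for Cxcr2 in its place. In sham BALB/c over time 10 of the 31 passed the unadjusted F test, beside 16.5% of all probes, and 0 by adjusted p, beside 1.59%. They were the receptors Cxcr4 (adjusted p = 0.217), Cxcr5 (adjusted p = 0.253) and Darc, the ligands Cxcl11 (adjusted p = 0.111) and Cxcl17, the inducers and signal genes Tnf, Nfkb1 and Nfkbia (adjusted p = 0.125), and the proteases Mmp8 (adjusted p = 0.0973) and Mmp9. Without the lymphocyte-rich array 8 passed, beside 21.3% (Cxcr4, Cxcr7, Darc, Cxcl11, Ifng, Nfkbia, Mmp8 and Mmp9), and 1 of them by adjusted p, Mmp8 (adjusted p = 0.0311), beside 2222 of all 55681 probes.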

How the data were processed

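Total RNA of 24 mammary glands was measured on 1-color Agilent mouse arrays of 62976 spots. Per the file headers (Feature Extraction 10.10.1.1), the deposited intensity values had local background and spatial trend removed. Other flags per spot, such as well above background, were deposited too. A second table of the authors holds log2 values scaled to the 75th percentile and centered on each probe's median. Here 3777 outlier spots were left out, log2 intensities of equal probes were averaged to 55681 probes, and each array's 75th percentile was subtracted. After centering, 99.812% of the authors' log2 values lay within 0.01 of these.

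Groups came from the labels. Each comparison was fitted to its own arrays (limma 3.58.1, R 4.3.3), adjusting p-values over all probes by Benjamini and Hochberg. The scripts were tested on simulated data. Thresholds follow the study's methods. Every member probe was tested; genes of the pathway lists are named where they pass the thresholds, and for each detected member the 3 named genes of highest r. Members and lists were chosen with earlier results of these data known. A bound sets the detected group's mean against the lowest detected level, or the probe's own if higher, on each array of the other group. Replicate letters did not pair the arrays (correlations of deviations -0.362 to 0.274). The number of arrays, 3 a group, limits precision. The arrays give no read depth. Promoter sequences are from RefSeq. One gene of the B cell list and 1 of the pathway lists are not reported here.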

Additional observations from a re-analysis of the deposited data

Results flagged for a closer look

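For the Cxcl10 clone probe the interaction of strain and LDIR at 4 weeks passed the unadjusted thresholds but not the adjusted p. The fitted value was -1.58 on the log2 scale (BALB/c minus SPRET/EiJ response, limma, adjusted p = 0.955) and -0.20 with normexp background correction. Sham BALB/c was the only group of the 4 in which this probe was well above background on any array, so the fitted value is no measured difference between responses. The mRNA probe of the same gene gave -0.39 (adjusted p = 0.958).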

How the results depend on the processing

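Each count of member probes past the thresholds was recomputed under every alternative, of which the 12-array strain fit and leaving out the 3 lymphocyte-rich arrays were chosen after seeing the data. No member call reversed its direction. For sham strains the count of 3 became 1 with the replicate block, 1 with all 24 arrays in one fit and 0 with slide as a factor in that fit. For LDIR at 2 weeks the count of 1 became 0 with normexp and 0 with detected probes only. At 4 weeks the count of 1 became 0 with normexp, 0 with all 24 arrays and 0 with slide added to that fit, but 2 with quantile normalization, 2 with the replicate block and 4 with the slide block. At 8 weeks the count of 1 became 0 in both fits of all 24 arrays, 2 with normexp, 2 with quantile normalization, 3 with detected probes and 4 without the lymphocyte-rich arrays. In SPRET/EiJ the count of 2 became 1 with normexp, 1 with detected probes and 1 with the methods' t-test. For pooled BALB/c the count of 0 became 1 with quantile normalization, the replicate block, all 24 arrays and without the lymphocyte-rich arrays. For the strain interaction the count of 1 became 0 with normexp and in both fits of all 24 arrays, and 2 with quantile normalization. For the time interaction the count of 0 became 1 with normexp, quantile normalization and without the lymphocyte-rich arrays. For time in sham BALB/c the count of 3 became 1 with the slide block, 0 with slide added to the 24-array fit, and 5 once the lymphocyte-rich array was left out. The replicate block left each other count within 1.5 times, although at 8 weeks it called Cxcl2 in place of Cxcl15. The letters did not pair the arrays, and the cause of these moves was not tested. Where no share of all probes is given above for an alternative, its count describes the calls and is no result about the members. At 8 weeks, for instance, that share moved from 1.92% to 4.35% without the lymphocyte-rich arrays. Leaving out 1 array gave counts of 1 to 2 (sham strains), 0 (LDIR strains), 1 to 3 (2 weeks), 1 to 2 (4 weeks), 0 to 3 (8 weeks), 1 to 3 (SPRET/EiJ), 0 to 1 (pooled), 1 to 2 (strain interaction), 0 to 2 (time interaction) and 2 to 5 (sham time). Under normexp the difference of the Cxcl10 clone probe was 0.27 between sham strains and -0.26 at 4 weeks. Signal near background limits Cxcl2, Cxcl5 and that probe. Strain and slide cannot be told apart after LDIR.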
